A study of Mus musculus with 8 samples.

Results

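The miR-379 to miR-410 cluster is a run of miRNA hairpins in the imprinted Dlk1-Dio3 region of the mouse genome, and its miRNAs were measured in the liver of MCD mice, whose food lacked methionine and choline, and of control mice on a normal diet. Members were chosen by name, as every array probe for an arm of a hairpin lying from miR-379 to miR-410. The rule gave 71 of the 1135 miRNA probes, which stand for 36 hairpins, 35 of them with a probe for each arm and miR-453 with 1 probe. Of the 71 probes, 69 could be tested, and miR-1197 and miR-1197* could not because they were too dim. The naming rule uses no measured value, but it was set with earlier results of these data known.

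The miRNAs of this region are expressed from the maternally inherited chromosome, and its protein-coding genes from the paternal one. A long transcript of the cluster is cut into hairpins, and Dicer then frees from each hairpin an RNA duplex whose arms, the 5p arm and the 3p arm, can each be loaded as a mature miRNA that represses mRNAs through its seed. These miRNAs are known chiefly from embryo, placenta and brain. In mouse liver, loss of the cluster disturbs the metabolic adaptation of newborns, and miR-379 has been tied to glucocorticoid control of lipid release.

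The study examined 4 MCD and 4 control livers, 1 array each, from male C57BL/6N mice that were 8 weeks old at the start according to the methods. The MCD diet is a dietary model of non-alcoholic steatohepatitis, and both groups received no drug. The labels give 23 weeks of diet and the methods 15 weeks for both groups. Since the labels number the livers and identify no mouse, each p-value reflects only the scatter among these 8 livers. The arrays were 1-colour mouse miRNA chips, on which 1 oligonucleotide spot reads each probe. Spot intensities below are as scanned. Log2 values are background-corrected and quantile-normalized, and each difference is MCD minus control on the log2 scale.

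On the GRCm38.p6 build the interval from Mir379 to Mir410 spans 34.7 kb on the plus strand of chromosome 12, at chr12:109709060-109743795. RefSeq lists 38 miRNA genes there and 1 other gene, the lncRNA Mirg. Of the 36 hairpins, 9 lie within Mirg and 27 upstream of it. A miR-666 hairpin also lies in the interval but outside the naming rule, and its probes differed by 0.08 ± 0.11 (SE) for miR-666-5p and -0.03 ± 0.13 for miR-666-3p, both not past the threshold.

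The mature sequences of the 10 probes past the threshold are shown because they carry the comparison, 5′ to 3′, with the seed (bases 2 to 8) in capitals. They come from RefSeq (GRCm38.p6), in which 67 of the 71 probes matched a mature entry. On the array an asterisk marks the arm that was held to be the minor one when the chip was designed.
miR-379: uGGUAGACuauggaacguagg
miR-411: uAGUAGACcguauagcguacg
miR-411*: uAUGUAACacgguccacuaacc
miR-299*: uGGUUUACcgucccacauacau
miR-376b: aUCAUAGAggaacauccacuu
miR-376a: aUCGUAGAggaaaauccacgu
miR-300: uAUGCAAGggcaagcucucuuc
miR-154: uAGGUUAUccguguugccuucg
miR-377: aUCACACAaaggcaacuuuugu
miR-409-3p: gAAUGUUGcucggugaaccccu

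These 10 miRNAs have 10 different seeds. The sequences of 4 more probes, none past the threshold, follow. miR-379*, miR-1193-5p and miR-381 are shown because each resembles one above, and miR-410 because the arms of its hairpin changed differently.
miR-379*: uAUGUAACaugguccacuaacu
miR-1193-5p: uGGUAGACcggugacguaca
miR-381: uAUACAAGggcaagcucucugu
miR-410: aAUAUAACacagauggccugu

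Most of the cluster was close to the background of the arrays. A probe counted as detected where its spot exceeded the blank mean by 2 SD of the blank spots, and a second, stricter limit was set in the same way from the negative control spots. Detected cluster probes numbered 50, 43, 65 and 61 on MCD arrays 1 to 4, against 62, 15, 59 and 63 on control arrays 1 to 4. Above the negative control limit there were 26, 17, 20 and 5 on the MCD arrays, against 5, 3, 4 and 3 on the control arrays. Thus 3 of the 4 MCD arrays stood above all control arrays on the stricter count, while MCD 4 equalled control 1. Among all miRNA probes, the share above the negative control limit was 35.6%, 23.1%, 23.3% and 18.6% on MCD arrays 1 to 4. On control arrays 1 to 4 it was 24.4%, 18.0%, 20.4% and 21.8%. MCD 1 was therefore highest for all probes as well, whereas MCD 2 and MCD 3 lay below control 1 there.

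The limits themselves differed between arrays. The negative control limit was 250 intensity units on MCD 1 and lay between 281 and 293 on the other arrays. Control 2 stood apart on the lower limit, since 42.4% of all 1135 probes exceeded it there, against 65.9% to 91.9% on the other arrays. The part of these differences in the counts was not tested. Over all 8 arrays, 40 cluster probes exceeded the negative control limit on no array and 1, miR-494, exceeded it on every array.

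**Figure D1:**
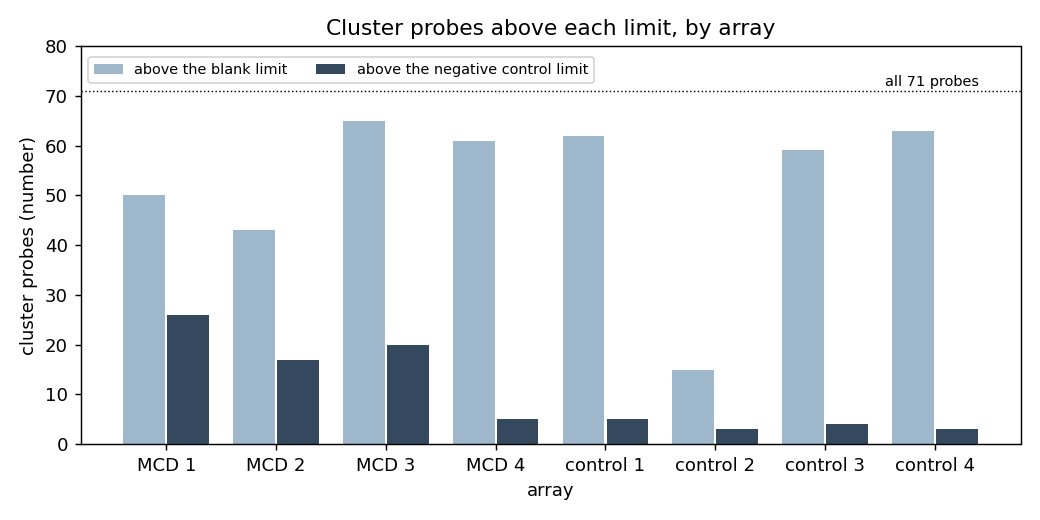
Number of cluster probes (y axis) above the blank limit (light bars) and above the negative control limit (dark bars) on each array (x axis), MCD arrays first; the dotted line is the number of cluster probes on the array, 71. The dark bars reach 26, 17 and 20 on MCD 1 to 3 and lie between 3 and 5 on MCD 4 and the control arrays.

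Among the 69 tested probes, 10 rose and 0 fell in MCD liver (limma, adjusted p under 0.05 over all 1076 tested probes). Of all tested probes 5.76% were higher and 4.46% were lower, whereas 14.5% of the tested cluster probes were higher. At an unadjusted p under 0.05, 18 cluster probes were higher and 0 lower, against 135 higher and 98 lower among all 1076 tested probes. The median difference of the cluster was 0.04, against -0.01 over all tested probes, with 40 positive and 29 negative differences. The calls were thus held by a minority of the cluster while its median stayed near that of the array. Since 40 of the 71 probes exceeded the negative control limit on no array, this median does not show that the rest was unchanged. Every tested cluster probe was detected on at least 1 array of each diet. Without the filter on dim spots, 10 of 71 cluster probes were higher, against 5.46% of all 1135 probes.

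The 10 probes came from 9 of the 36 hairpins. In all 10 the lowest MCD array exceeded the highest control array on the normalized scale. Counting every tested cluster probe, 12 had such a separation upwards and 0 downwards, against 8.83% and 6.23% of all tested probes. Each of the 10 was detected on all 4 MCD arrays, which alone meets the filter, and on 1 to 4 control arrays, and 9 of them exceeded the negative control limit on no control array. Their control values therefore sat near background, and the size of their differences depended on the background correction. With other settings the difference of miR-379 ran between 0.86 (no background correction) and 2.76 (blank subtraction), and that of miR-376a between 0.84 (no background correction) and 2.80 (deposited processed values). The fold changes below hold for the normexp correction with an offset, which pulls those of dim probes towards 0.

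Hairpins 1 to 3 of the cluster, miR-379, miR-411 and miR-299, lie within 1.6 kb of each other and gave 4 of the 10 probes. miR-379, the first miRNA of the cluster, had spot intensities of 454, 551, 732 and 340 in MCD liver, against 268, 275, 270 and 230 in control liver. Every MCD value was above every control value, with MCD 3 highest and MCD 4 lowest. It averaged 8.31 ± 0.52 in MCD and 6.80 ± 0.25 in control on the log2 scale (SD, n = 4 each), a difference of 1.51 ± 0.22 (SE, adjusted p = 0.000677) or 2.84-fold. It was detected on 3 of 4 control arrays. The mature miRNA maps to chr12:109709065-109709085.

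Both arms of the miR-411 hairpin rose. miR-411, the 5p arm, had 307, 361, 391 and 286 intensity units in MCD, against 265, 260, 222 and 240 in control, and differed by 0.87 ± 0.16 (adjusted p = 0.00392). Its control values were detected on 1 of 4 arrays only. miR-411*, the 3p arm, had 362, 364, 442 and 302 units in MCD, against 259, 254, 241 and 273 in control, and differed by 0.97 ± 0.14 (adjusted p = 0.000677). The groups did not overlap for either arm, and MCD 4 was the lowest MCD array for both.

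miR-299*, the 5p arm of the third hairpin, had 297, 316, 353 and 277 units in MCD, against 262, 271, 238 and 254 in control. All MCD values were again above all control values, and the difference was 0.57 ± 0.12 (adjusted p = 0.00821), or 1.48-fold. The remaining probes of these hairpins, miR-379* at 0.28 ± 0.11 (adjusted p = 0.146) and miR-299 at 0.07 ± 0.10 (adjusted p = 0.756), did not pass. All 6 probes of the first 3 hairpins thus had positive differences, with a median of 0.72.

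**Figure D2:**
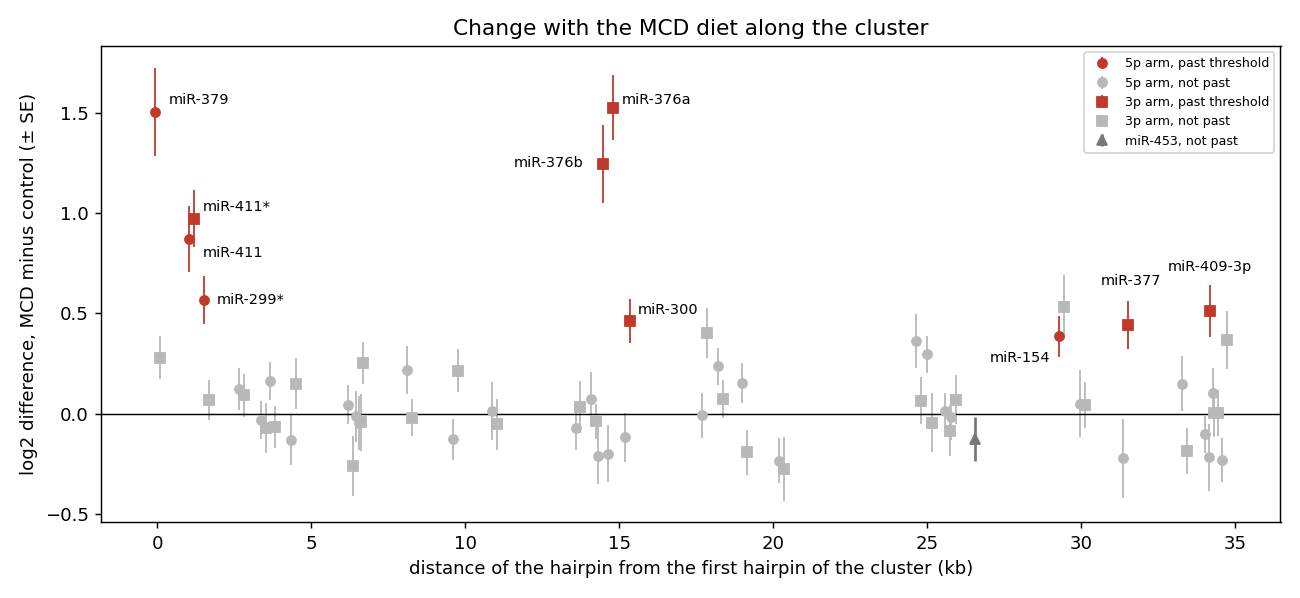
Log2 difference, MCD minus control (y axis, ± SE), of the 69 tested cluster probes against the distance of their hairpin from the first hairpin in kb (x axis); circles are 5p arms, squares 3p arms and the triangle miR-453, and red marks an adjusted p under 0.05. Red points stand at the start (miR-379, miR-411, miR-411*, miR-299*), in the middle (miR-376b, miR-376a, miR-300) and near the end (miR-154, miR-377, miR-409-3p), with grey points around 0 between them.

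The hairpins 17 to 19, miR-376b, miR-376a and miR-300, follow each other directly and each gave 1 probe, the 3p arm. miR-376a, named by the study among its key miRNAs, belongs to a family whose precursors are edited from adenosine to inosine in mouse brain. It had 509, 462, 671 and 343 intensity units in MCD, against 255, 246, 255 and 274 in control. The control arrays were tightly grouped and the MCD arrays were spread above them. On the log2 scale this was 8.26 ± 0.38 in MCD and 6.74 ± 0.12 in control (SD, n = 4 each), a difference of 1.53 ± 0.16 (SE, adjusted p = 4.91e-05) or 2.88-fold. Which of miR-376a and miR-379 had the larger difference changed with the background correction and the scaling.

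miR-376b had 440, 418, 552 and 311 units in MCD, against 255, 255, 295 and 244 in control, and differed by 1.25 ± 0.19 (adjusted p = 0.00102) or 2.37-fold. The lowest MCD array, MCD 4, exceeded the highest control array, control 3. The mature miR-376a and miR-376b are identical at 18 of 21 positions, counted from the 5′ end, so each probe may also read the other miRNA, and the extent of this was not tested. Their loci are chr12:109723824-109723844 for miR-376a and chr12:109723508-109723528 for miR-376b.

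The rest of the miR-376 family did not pass. miR-376c had 244, 269, 257 and 225 units in MCD, against 259, 236, 258 and 251 in control, and differed by 0.03 ± 0.13 (adjusted p = 0.937). The 5p arms differed by -0.20 ± 0.14 for miR-376a*, -0.21 ± 0.14 for miR-376b* and -0.07 ± 0.11 for miR-376c* (adjusted p between 0.462 and 0.756). None of these 4 probes exceeded the negative control limit on any array. Within the family the change was seen for the 3p arms of miR-376a and miR-376b.

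miR-300, the other cluster miRNA that the study singled out, had 273, 296, 332 and 272 units in MCD, against 278, 254, 241 and 247 in control. As scanned, control 1 lay above MCD 1 and MCD 4. After normalization the groups were separate, at 7.25, 7.31, 7.50 and 7.14 in MCD and 7.03, 6.88, 6.69 and 6.76 in control on the log2 scale, with a difference of 0.46 ± 0.11 (adjusted p = 0.0190). The next hairpin holds miR-381, which is identical to miR-300 at 19 of 22 positions though not in the seed. It had 288, 305, 311 and 274 units in MCD, against 255, 239, 262 and 272 in control, with the normalized groups overlapping and a difference of 0.40 ± 0.13 (adjusted p = 0.0658). The probes of miR-300 and miR-381 may each also read the other miRNA, and the extent of this was not tested.

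The last 3 probes past the threshold came from hairpins within Mirg, which is where the distal end of the cluster lies. Their changes were small. miR-154 had 281, 295, 306 and 276 units in MCD, against 270, 272, 249 and 254 in control (difference 0.39 ± 0.10, adjusted p = 0.0303). miR-377 had 267, 295, 328 and 264 units in MCD, against 263, 251, 247 and 251 in control (0.44 ± 0.12, adjusted p = 0.0344). In both, the lowest MCD array cleared the highest control array by a few units only.

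miR-409-3p had 262, 293, 276 and 265 units in MCD, against 255, 257, 239 and 235 in control, and was detected on 1 of 4 control arrays. Its difference was 0.51 ± 0.13 (adjusted p = 0.0247), and it exceeded the negative control limit on 2 MCD arrays. The calls of miR-300, miR-154, miR-377 and miR-409-3p were lost with some single arrays left out, each of them when any one of MCD 2, MCD 3, control 3 and control 4 was dropped. Those of miR-379, miR-411, miR-411*, miR-299*, miR-376b and miR-376a were kept with any single array left out.

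**Figure D3:**
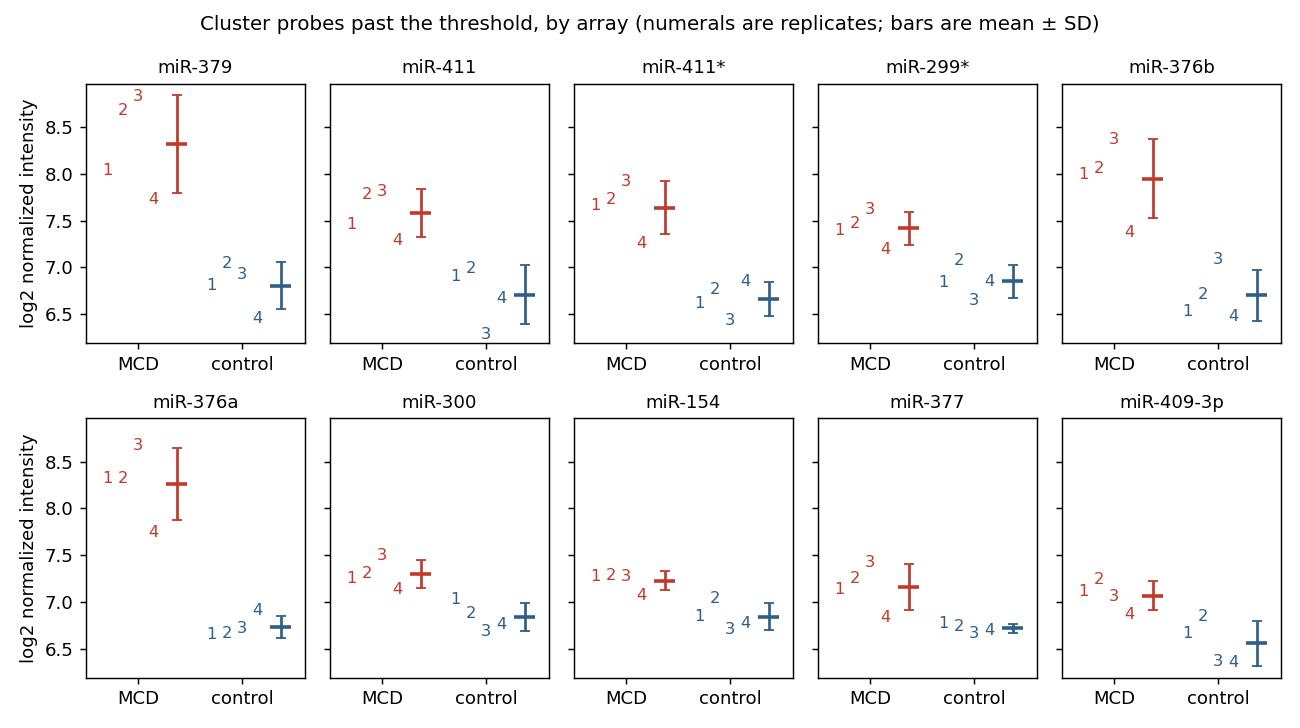
Normalized log2 intensity (y axis) of the 10 cluster probes past the threshold, MCD at left and control at right in each panel; numerals give the replicate number of each array, and bars the mean ± SD of 4 arrays. In every panel all MCD arrays lie above all control arrays, and MCD 4 is the lowest MCD array.

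The MCD arrays differed among themselves in the same way across these miRNAs. MCD 4 was the lowest MCD array for all 10 probes and MCD 3 the highest for 8 of them. Among all 62 probes of the array that were higher in MCD, MCD 4 was the lowest for 37. Without MCD 4, the cluster had 14 probes past the threshold, and without MCD 2, MCD 3 or control 4 it had 6. Of all tested probes, 6.51% were higher without MCD 4, 4.37% without MCD 2 and 4.18% without MCD 3 or control 4. Probes of 1 cluster share a transcript and are no independent replicates of this order.

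Just outside the threshold stood miR-154*, which had 283, 331, 391 and 286 units in MCD, against 265, 236, 292 and 272 in control (0.53 ± 0.16, adjusted p = 0.0545). Its groups overlapped because control 3 was high. miR-134, which in rat neurons restrains the growth of dendritic spines, had 282, 274, 286 and 277 units in MCD, against 268, 246, 259 and 257 in control (0.30 ± 0.09, adjusted p = 0.0658). Its groups did not overlap, and the same held for miR-487b* (0.24 ± 0.09, adjusted p = 0.152), which was picked out after its values were seen. Further positive differences were those of miR-410, the last miRNA of the cluster, at 0.37 ± 0.15 (adjusted p = 0.157), miR-382 at 0.36 ± 0.14 (adjusted p = 0.139) and miR-1193-3p at 0.25 ± 0.10 (adjusted p = 0.172).

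On the negative side no cluster probe passed. The brightest cluster probe, miR-494, had 870, 636, 677 and 701 units in MCD, against 785, 725, 708 and 817 in control, and the groups overlapped. Its difference was -0.26 ± 0.15 (adjusted p = 0.364). Of the cluster it alone exceeded the negative control limit on all 8 arrays. Further negative differences were -0.27 ± 0.16 for miR-544-3p, -0.23 ± 0.11 for miR-544-5p, -0.23 ± 0.11 for miR-410*, -0.22 ± 0.20 for miR-377* and -0.22 ± 0.17 for miR-412-5p (adjusted p between 0.240 and 0.584).

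Along the cluster, the calls lay in 3 stretches. Hairpins 4 to 16 gave 0 calls among 24 tested probes, with differences between -0.26 and 0.25. Hairpins 20 to 28 gave 0 calls among 17 tested probes, with differences between -0.27 and 0.40. Hairpins 29 to 36, at the distal end, gave 3 calls among 16 tested probes. By equal parts of 12 hairpins the counts were 4 of 22 in the first, 3 of 24 in the middle and 3 of 23 in the last. The stretches were drawn after the values were seen and carry no test. The hairpins between them were dim. In hairpins 4 to 16 only miR-494 cleared the negative control limit on 4 or more of the 8 arrays, and in hairpins 20 to 28 no probe did. In each of the 3 stretches with calls 2 probes did, a count that a rise in MCD itself raises. A change of dim probes could be missed, so the stretches do not show that the hairpins between them were unchanged.

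By arm, 4 of 34 tested 5p probes and 6 of 34 tested 3p probes were higher. By the name on the array, 7 of 25 probes without an asterisk were higher, against 2 of 24 with an asterisk and 1 of 20 named by arm. Median differences were 0.15 for probes without an asterisk, 0.01 for those with one and -0.02 for those named by arm.

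The arms of a hairpin derive from 1 precursor, so their changes were compared directly. For each hairpin with both arms tested, the log2 difference between its arm probes was taken on every array and compared between the diets with limma, over all 366 such hairpins of the array. This test was added after the data had been seen. It does not depend on any shift common to all probes of an array. Between the diets, the arms differed for 8 of 34 cluster hairpins, against 15.3% of all hairpins tested.

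The widest gaps were those of miR-376 and miR-379. The difference of miR-376a exceeded that of miR-376a* by 1.73 ± 0.18 (SE, adjusted p = 3.06e-09). That of miR-376b exceeded that of miR-376b* by 1.46 ± 0.21 (adjusted p = 1.82e-06). Part of each gap came from the negative differences of miR-376a* and miR-376b*, -0.20 and -0.21, which did not pass. At the head of the cluster, miR-379 rose more than miR-379* by 1.23 ± 0.19 (adjusted p = 7.70e-06). The minor arms were dim, since miR-376a* and miR-376b* exceeded the negative control limit on no array and miR-379* on 2 MCD arrays.

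Smaller gaps were found for miR-377 over miR-377* (0.67 ± 0.20, adjusted p = 0.0169), miR-410 over miR-410* (0.60 ± 0.18, adjusted p = 0.0172) and miR-300 over miR-300* (0.58 ± 0.17, adjusted p = 0.0169). For miR-409, named by arm, miR-409-5p minus miR-409-3p was -0.61 ± 0.17 (adjusted p = 0.0120), with the rise in the 3p arm. miR-299 minus miR-299* was -0.50 ± 0.17 (adjusted p = 0.0393), and there the arm marked as minor was the one that rose. In miR-410 neither arm passed alone, and the gap joins a positive difference of one arm to a negative one of the other. The gaps of miR-377, miR-300 and miR-409 also include a negative difference that did not pass, -0.22 for miR-377*, -0.12 for miR-300* and -0.10 for miR-409-5p. These arms were dim as well. miR-299, miR-300*, miR-409-5p and miR-410* exceeded the negative control limit on no array, and miR-377* on 1 array of each diet. A change of such dim arms could be missed.

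miR-411 and miR-154 were different in that both arms had like differences. miR-411 minus miR-411* was -0.10 ± 0.17 (adjusted p = 0.766), and miR-154 minus miR-154* was -0.15 ± 0.19 (adjusted p = 0.668). The number of cluster hairpins with unequal arms was 2 after subtraction of the blank level in place of the main background correction, and 4 to 10 with single arrays left out, lowest without MCD 2 or MCD 3.

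**Figure D4:**
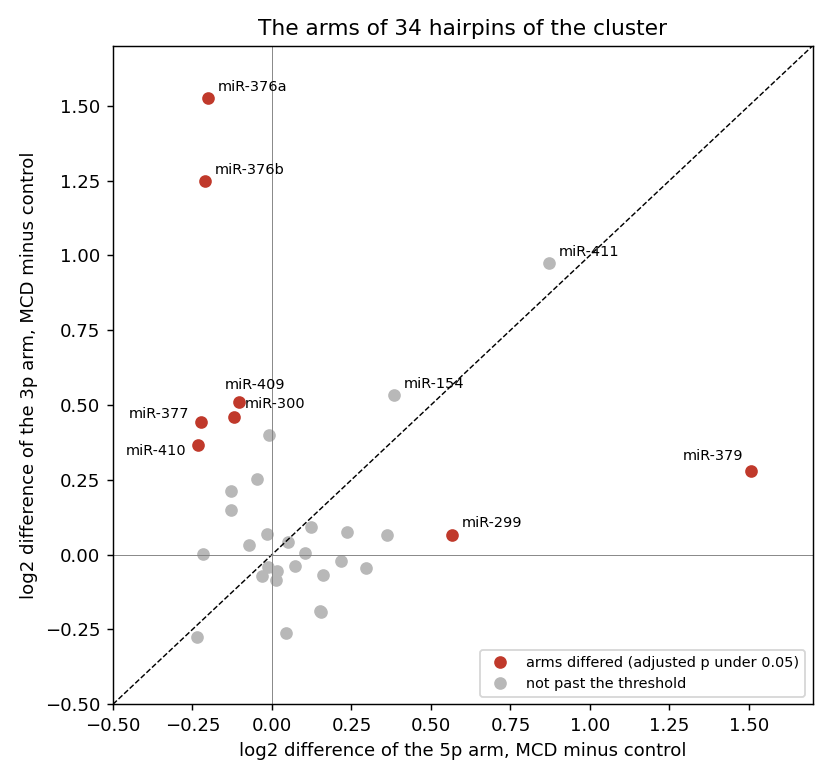
Log2 difference, MCD minus control, of the 3p arm (y axis) against that of the 5p arm (x axis) for the 34 cluster hairpins with both arms tested; the dashed line marks equal change, and red marks hairpins whose arms differed (limma, adjusted p under 0.05). miR-376a and miR-376b lie far above the line at 1.53 and 1.25 on the y axis, miR-379 lies far below it at 1.51 on the x axis, and miR-411 lies on it.

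Of the 61 seeds among the 67 sequences, 6 were shared by a pair of cluster miRNAs. In none of these 6 pairs were both members past the threshold. miR-379 and miR-1193-5p both have the seed GGUAGAC, and differed by 1.51 and by -0.05 ± 0.14. miR-411* and miR-379* both have AUGUAAC and are identical at 20 of 22 positions, and differed by 0.97 and 0.28. Here too each probe may also read the other miRNA, which was not tested. The other shared seeds were GGUUGAC (miR-1197*, miR-758*), GGUUGCC (miR-453, miR-496*), GGUUGUC (miR-494*, miR-410*) and UGGAUAU (miR-376c*, miR-376b*), with no probe past the threshold.

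Few miRNAs outside the cluster carry these seeds. Among the 1679 mature mouse entries of RefSeq, 1 outside the cluster shared a seed with a probe past the threshold, miR-7229-5p with miR-411. miR-379 and miR-411 themselves differ in the seed and are identical at 14 of 21 positions.

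Elsewhere in the same imprinted region, 30 probes stand for its other miRNAs. Of these 28 were tested, 2 rose and 0 fell, or 7.14% higher, against 5.76% of all tested probes. The difference from the cluster was not tested. These were miR-434-5p (313, 334, 365 and 296 units in MCD, against 269, 230, 256 and 242 in control, 0.75 ± 0.12, adjusted p = 0.00163) and miR-127 (324, 335, 394 and 302 units in MCD, against 271, 254, 283 and 243 in control, 0.74 ± 0.13, adjusted p = 0.00182). Both miRNAs are transcribed antisense to Rtl1, whose mRNA miR-127 cleaves in mouse. MCD 4 was the lowest MCD array for both, as in the cluster. The next smallest p were those of miR-673-3p (0.34 ± 0.13, adjusted p = 0.142) and miR-136 (0.39 ± 0.17, adjusted p = 0.177).

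Bulk liver RNA holds several cell types, and a change in the number of cells of a type cannot be told apart from a change of RNA per cell. All 6 hepatocyte probes, miR-122 among them, exceeded the negative control limit on every array. All 6 were lower in MCD, and their summed normalized intensity ranged between 21733 and 28554 in MCD, against 43427 to 46439 in control. These sums were mostly miR-122, at 14.98 on every control array and 13.73, 14.29, 14.29 and 14.29 on MCD 1 to 4 (log2). The other hepatocyte probes reached at most 12.68. Quantile normalization gives equal values to equal ranks, so the miR-122 values show its rank on each array and not its spread among livers. Since miR-122 dominates the sums, their spread and the gap between diets say little about the other probes. Of 7 probes for mesenchymal cells (stellate cells, fibroblasts and smooth muscle) 6 were higher, with sums of 4361 to 6634 in MCD, against 2530 to 2851 in control. Of 5 bile duct probes 3 were higher, with sums of 1234 to 2731 in MCD, against 573 to 635 in control.

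Within the MCD group the order of the arrays differed between lists. The mesenchymal sum was highest on MCD 3 and lowest on MCD 4, at 6634 and 4361. The same held for the bile duct sum, at 2731 and 1234, and the leukocyte sum, at 1858 and 1376. The endothelial sum was highest on MCD 1 and lowest on MCD 2. The hepatocyte sum was highest on MCD 4 and lowest on MCD 1, the array with the lowest miR-122. Of 7 leukocyte probes 3 were higher, with sums of 1376 to 1858 in MCD, against 1233 to 1637 in control. Of 2 endothelial probes, 1 was higher, with sums of 4242 to 5991 in MCD, against 3045 to 3455 in control. The part of these cell types in the change of the cluster was not tested.

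Neurons express the cluster strongly in the brain, and most of their markers were near background here. None of 4 neuronal probes passed, 3 of them, miR-124, miR-9 and miR-138, exceeded the negative control limit on no array, and the sums were 432.8 to 462 in MCD, against 389 to 424 in control. None of the 2 tested muscle probes passed either, and their list summed to 311 to 365 in MCD, against 319 to 346 in control.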

How the data were processed

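The authors labelled total RNA, hybridised it to a mouse miRNA oligonucleotide chip (version 17) and deposited scanner files with the uncorrected intensity of each spot, besides a table of processed intensities (spot minus a trimmed blank mean, scaled to a median of 45 per array and left empty near the blank level). The scanner columns carry a green wavelength and the labels name a red dye, and the same columns served for every array. Here the spot intensities were corrected with normexp (offset 50), log2-transformed and quantile-normalized across the 1135 miRNA probes in limma 3.58.1 (R 4.3.3). A probe was tested where its spot exceeded the blank mean plus 2 SD on at least 4 of 8 arrays (1076 probes). Diets were compared by lmFit and eBayes, two-sided, with Benjamini-Hochberg adjustment over all tested probes at 0.05, and the script was tested on simulated data. The number of arrays limits the precision.

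The text names all cluster probes past the threshold, the other arm of their hairpins, the miR-376 family, the 5 largest remaining differences each way, probes above the negative control limit on all arrays and the study's picks. Members and lists were chosen with earlier results of these data known. Alternatives covered background correction, scaling, filter, test, array weights and left-out arrays. The scanner files place all MCD arrays at position 2 and all control arrays at position 1, so position and diet cannot be told apart, and no slide is named that could serve as a block. No 2 arrays held identical values. Figures were drawn with matplotlib.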

Additional observations from a re-analysis of the deposited data

Results flagged for a closer look

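Among the 30 named cluster probes, each diet's 4 arrays were checked for 1 array far from the rest, by Dixon's criterion, and 2 of 60 groups were marked, where chance alone marks about 1 in 20. Both involved MCD 4. miR-154 had a log2 intensity of 7.07 on MCD 4, against 7.27 to 7.29 on the other MCD arrays. miR-381 had 6.91 on MCD 4, against 7.31 to 7.38 on the other MCD arrays, and without MCD 4 it passed the threshold (0.52 ± 0.11, adjusted p = 0.0105).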

How the results depend on the processing

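The 10 cluster probes higher in MCD kept a positive difference under all alternatives that tested them. miR-379, miR-411*, miR-376b and miR-376a also stayed past the threshold under each of them. The count of higher cluster probes was 6 after subtraction of the blank level, 5 with spike control scaling, 16 with the methods' t-test without adjustment and 4 after its adjustment. Of all tested probes, 3.07% were higher after blank subtraction and 3.07% with spike control scaling. The shares were 11.3% with the unadjusted t-test and 3.16% after its adjustment. Spike control scaling moved the median of all tested probes to -0.21, and the 5 calls were among the 10. A pair of stricter filters left 7 cluster probes each. Where detection on all 8 arrays was asked for, 1 of the 7 was higher, against 16.3% of all probes tested in this way. Above the negative control limit, 5 of the 7 were higher, against 27.6%. Of these, miR-379, miR-411*, miR-376b and miR-376a met the filter through the 4 MCD arrays alone. That share was thus raised by the filter itself and is no support for a rise. With single arrays left out the count ranged between 6 and 14, and the share of all tested probes between 4.18% and 6.51%. The deposited processed values gave 9 higher and 1 lower, miR-541*, at -0.95 ± 0.32 (adjusted p = 0.0492), against -0.19 ± 0.11 (adjusted p = 0.397) in the main analysis. Of all probes tested in that fit, 3.55% were higher and 2.58% lower. Empty values were left out of it. The causes were not tested.

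With the replicate number as a block, 11 of 69 cluster probes were higher, the 10 and miR-154*, against 6.23% of all tested probes. The labels do not state whether same-numbered arrays were paired. Their deviations correlated between -0.01 and 0.10, which cannot settle this, since no comparison with differently numbered arrays is given. The slide as a block was not run. The number of hairpins with unequal arms was 8, against 2 after blank subtraction and 4 to 10 with single arrays left out. Among the 20 named probes not past the threshold, 13 passed under no alternative, and 3 (miR-299, miR-376c and miR-377*) changed sign at least once without passing. Signal near background limits all cluster probes but miR-494.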
